A study of Mus musculus with 36 samples.

Results

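The 10 genes described here encode proteins of glycolysis and of the lactate shuttle: the glucose transporter Slc2a1, the hexokinases Hk1 and Hk2, phosphofructokinase Pfkp, aldolase Aldoc, pyruvate kinase Pkm, the lactate dehydrogenase subunits Ldha and Ldhb, and the monocarboxylate transporters Slc16a1 and Slc16a3. They were matched by gene symbol and Ensembl identifier, and are 10 of the 52636 genes in the count table. Each was found once and passed the filter on low counts. Their RNA was compared between 3 kinds of cells sorted by FACS from the diaphragm, pectoralis, forelimb and hindlimb muscles of S100β-GFP;NG2-dsRed mice. The S100b promoter drives GFP and the promoter of Cspg4, the gene of NG2, drives dsRed in these animals. Perisynaptic Schwann cells (PSCs), the glia of the neuromuscular junction, were sorted as cells with both colours, S100β-GFP+ cells as cells with GFP alone, and NG2-dsRed+ cells as cells with dsRed alone. Of 36 labelled libraries 27 were analysed, namely 9 of PSCs, 8 of S100β-GFP+ and 10 of NG2-dsRed+ cells, each from 1 mouse according to the methods. Nothing in the labels says whether libraries of different cell types came from the same mice, so animals may be shared between groups. The series description counts 7 S100β-GFP+ replicates, whereas the table has 8 such columns. The labels give each library an age range that starts at P15 and ends at a day from P21 up to P46, while the methods name P15 to P21 for all. The last day of the range rises by 1 from each sample to the next until it reaches P46, so it may not give the ages of the mice. Both reporters mark promoter use, so other cells that use either promoter pass the same gates.

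Glycolysis splits glucose into pyruvate in the cytosol. Lactate dehydrogenase then interconverts pyruvate and lactate as a tetramer of A and B subunits, in which A (Ldha) is typical of tissues that form lactate and B (Ldhb) of tissues that oxidise it. Monocarboxylate transporters carry lactate with a proton across the plasma membrane, and myelinating glia are known to pass lactate to axons through the transporter encoded by Slc16a1.

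The libraries held 5221655 to 9592875 counts on genes, and levels are given as counts per 1000000 (CPM) after TMM scaling. As a check of the sort, Cspg4 averaged 689 CPM in PSCs, 665 in NG2-dsRed+ cells and 71.0 in S100β-GFP+ cells, and S100b averaged 255, 6.54 and 29.4 CPM in the same order. The summed level of the 8 Schwann cell lineage markers was 2004 to 2930 CPM in PSCs, 63.2 to 416 in S100β-GFP+ cells and 34.0 to 79.4 in NG2-dsRed+ cells, with Sox10, the transcription factor that defines the lineage, at 506, 20.2 and 4.45 CPM on average. That of the 8 fibroblast markers was 1553 to 4665 CPM in PSCs, 24785 to 54385 in S100β-GFP+ cells and 2909 to 25089 in NG2-dsRed+ cells, so that fibroblast marker RNA far exceeded Schwann lineage marker RNA in every S100β-GFP+ library. All 8 macrophage and leukocyte markers on the list were higher there than in PSCs and than in NG2-dsRed+ cells, and their summed level was 400.2 to 4382 CPM, against 2.33 to 40.7 in PSCs and 9.88 to 25.4 in NG2-dsRed+ cells. All 8 fibroblast markers and all 5 erythroid markers were also lower in PSCs than there. In NG2-dsRed+ cells all 8 endothelial markers, 9 of 10 pericyte and smooth muscle markers and all 8 fibroblast markers were higher than in PSCs. No marker of these lists was at 0 in every library of any cell type, and the part of these other cells in the differences below was not tested. In bulk RNA, fewer cells of a type and less RNA per cell cannot be told apart. S100β-GFP+ libraries 14, 17 and 22 had less leukocyte and more endothelial marker RNA than the other 5, and PSC library 18 had the fewest genes with a count, 14616, so results are also given without them where that matters.

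PSCs held less RNA of 7 of the 10 genes than each of the other cell types, and more Ldhb. Against S100β-GFP+ cells, 7 of the 10 genes were lower in PSCs, 1 was higher (Ldhb) and 2 did not pass the test (Aldoc and Slc16a1), where 47.0% of the 15330 genes tested passed, 24.1% lower and 22.9% higher. Against NG2-dsRed+ cells, 7 were lower and 3 higher (Aldoc, Ldhb and Slc16a1), where 44.0% of all genes passed, 23.1% lower and 20.9% higher. For the 10 genes the median log2 fold change was -1.12 in the first of these comparisons and -1.09 in the second, beside medians over all genes of 0.04 and 0.02. Both comparisons use the same PSC libraries. Between S100β-GFP+ and NG2-dsRed+ cells, 5 of the 10 were higher in S100β-GFP+ cells, 2 were lower (Hk1 and Ldhb) and 3 did not pass, where 33.3% of all genes passed, 18.1% higher and 15.2% lower. Adjusted p-values are those of edgeR's quasi-likelihood test with Benjamini-Hochberg adjustment over all genes tested.

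Counting only genes whose libraries did not overlap gave a smaller group. Every PSC library lay below every S100β-GFP+ library for Pfkp, Ldha and Slc16a3, and above for Ldhb, where 10.3% of all genes lay wholly below and 5.24% wholly above. Every PSC library lay below every NG2-dsRed+ library for Hk1, Pfkp and Ldha, and above for Aldoc and Ldhb, where these shares were 8.83% and 5.08%. Pfkp and Ldha were therefore below, and Ldhb above, all 18 other libraries in all 9 PSC libraries. Aldoc had only 11 counts in the NG2-dsRed+ libraries together. Between S100β-GFP+ and NG2-dsRed+ cells only Slc16a3 did not overlap, being higher in S100β-GFP+ cells, where 7.21% of all genes were wholly higher and 4.38% wholly lower.

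**Figure D1:**
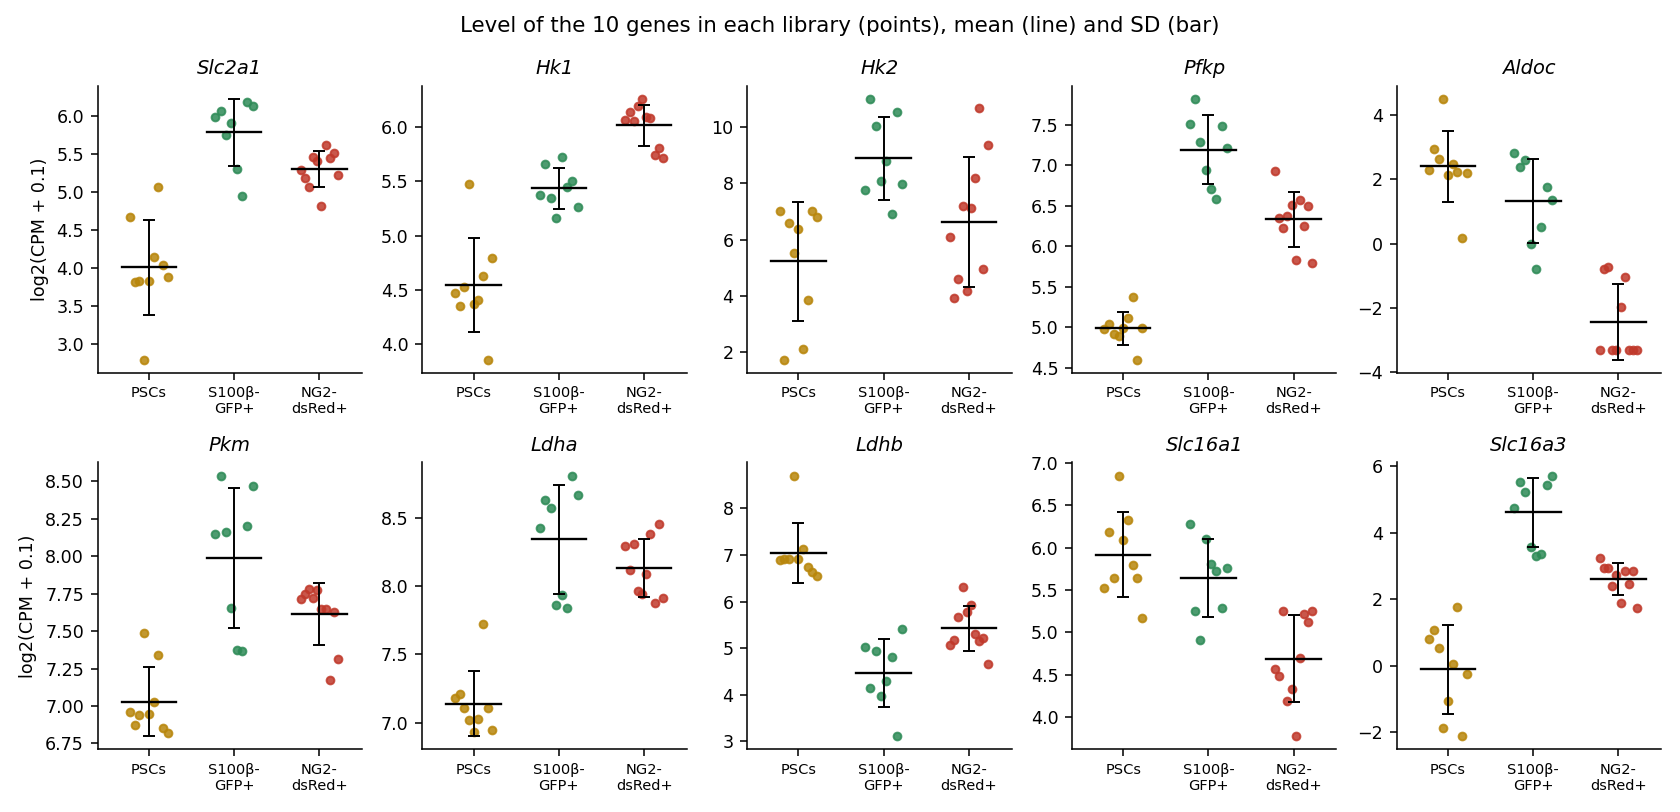
Level of the 10 genes in each library, as log2(CPM + 0.1) with an axis of its own in each panel, in 3 columns for the 9 PSC libraries, the 8 of S100β-GFP+ cells and the 10 of NG2-dsRed+ cells. Points are libraries, the line is the mean and the bar 1 SD. PSC points lie below both other cell types for Pfkp and Ldha and above both for Ldhb, and the points of Hk2 spread widely in each cell type.

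Slc2a1 encodes GLUT1, the transporter that brings glucose into most cells (ENSMUSG00000028645, chr4:119108711-119137983, + strand, GRCm38). Its level in PSCs was 6.83 CPM in the lowest library, 14.6 in the median and 33.5 in the highest. In S100β-GFP+ cells these values were 30.8, 61.7 and 72.8 CPM, and in NG2-dsRed+ cells 28.0, 40.6 and 49.1 CPM. All PSC libraries except library 31 lay below every library of both other cell types. The log2 fold change in PSCs was -1.72 ± 0.22 (SE) against S100β-GFP+ cells (edgeR adjusted p = 1.15e-07), a 3.29-fold lower level, and -1.20 ± 0.21 against NG2-dsRed+ cells (edgeR adjusted p = 2.02e-05). Between S100β-GFP+ and NG2-dsRed+ cells the difference of 0.52 ± 0.21 did not pass the test (edgeR adjusted p = 0.0510). That difference passed under 6 of the other settings tried, and also without S100β-GFP+ library 17 (0.58, edgeR adjusted p = 0.0333) or 22 (0.61, 0.0188) or NG2-dsRed+ library 26 (0.56, 0.0463) or 28 (0.57, 0.0420).

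Hk1 encodes the hexokinase found in most tissues, which traps glucose as glucose-6-phosphate (ENSMUSG00000037012, chr10:62268855-62379908, - strand). PSC libraries ran from 14.4 to 44.5 CPM with a median of 22.2, S100β-GFP+ libraries from 35.6 to 52.7 with a median of 42.4, and NG2-dsRed+ libraries from 52.4 to 76.6 with a median of 67.5. The cell types thus stood in the order PSCs, S100β-GFP+, NG2-dsRed+, and the highest PSC value was that of library 18. Each neighbouring pair differed: the log2 fold change was -0.85 ± 0.16 (SE) for PSCs against S100β-GFP+ cells (edgeR adjusted p = 4.39e-05) and -0.58 ± 0.15 for S100β-GFP+ against NG2-dsRed+ cells (edgeR adjusted p = 0.00336). PSCs differed from NG2-dsRed+ cells by -1.43 ± 0.15 (edgeR adjusted p = 5.39e-09).

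Hk2 encodes the hexokinase that is abundant in muscle and fat and is raised in many growing cells (ENSMUSG00000000628, chr6:82725025-82774454, - strand). Its libraries spread widely within each cell type. PSC libraries ran from 3.23 CPM to 130.0 CPM with a median of 83.2, S100β-GFP+ libraries from 119.5 to 2046 with a median of 358, and NG2-dsRed+ libraries from 15.1 to 1652 with a median of 103. The highest library exceeded the lowest 40.3-fold in PSCs and 109-fold in NG2-dsRed+ cells. On average PSCs were lower than S100β-GFP+ cells (-3.42 ± 0.90 SE on the log2 scale, edgeR adjusted p = 0.00241), and 7 of 9 PSC libraries lay below all S100β-GFP+ libraries. PSCs were also lower than NG2-dsRed+ cells (-2.15 ± 0.83, edgeR adjusted p = 0.0364), though the libraries overlapped. This second difference did not pass with limma-voom (-0.64, adjusted p = 0.539), with the fit of only these 2 cell types (-2.14, edgeR adjusted p = 0.0517), without NG2-dsRed+ library 28 (-1.08, 0.246) or 35 (-1.87, 0.0742), or without any 1 of PSC libraries 6, 12, 18, 20, 23 and 31 (-2.14 to -1.98, 0.0534 to 0.0646).

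The level of Hk2 moved with a feature of the libraries. Lars2, Gm23935 and Gm15564 together took 3.64% to 36.6% of the counts in PSC libraries, 19.5% to 39.1% in S100β-GFP+ libraries and 12.5% to 40.0% in NG2-dsRed+ libraries. Within cell types, Hk2 fell by 1.77 ± 0.21 (SE) on the log2 scale for each 10 percentage points more of this share (edgeR adjusted p = 1.54e-07). Of all genes, 15.2% fell with the share and 16.3% rose. None of the other 9 genes passed this test, the lowest of their adjusted p-values being 0.118, for Ldhb. The 4 PSC libraries with a share under 10% held 83.2 to 130.0 CPM of Hk2, and libraries 6 and 23, with 31.5% and 36.6%, held 3.23 and 4.23. With the share as a term in the fit, the log2 fold change of Hk2 in PSCs was -5.34 ± 0.55 (SE) against S100β-GFP+ cells (edgeR adjusted p = 2.67e-09) and -3.04 ± 0.47 against NG2-dsRed+ cells (edgeR adjusted p = 4.94e-06), and Hk2 was higher in S100β-GFP+ than in NG2-dsRed+ cells by 2.30 ± 0.45 (edgeR adjusted p = 0.000155). Without the term this last difference was 1.27 ± 0.81 and did not pass (edgeR adjusted p = 0.250), although it did without NG2-dsRed+ library 28 (2.28, 0.0244). What the share reflects was not tested.

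**Figure D2:**
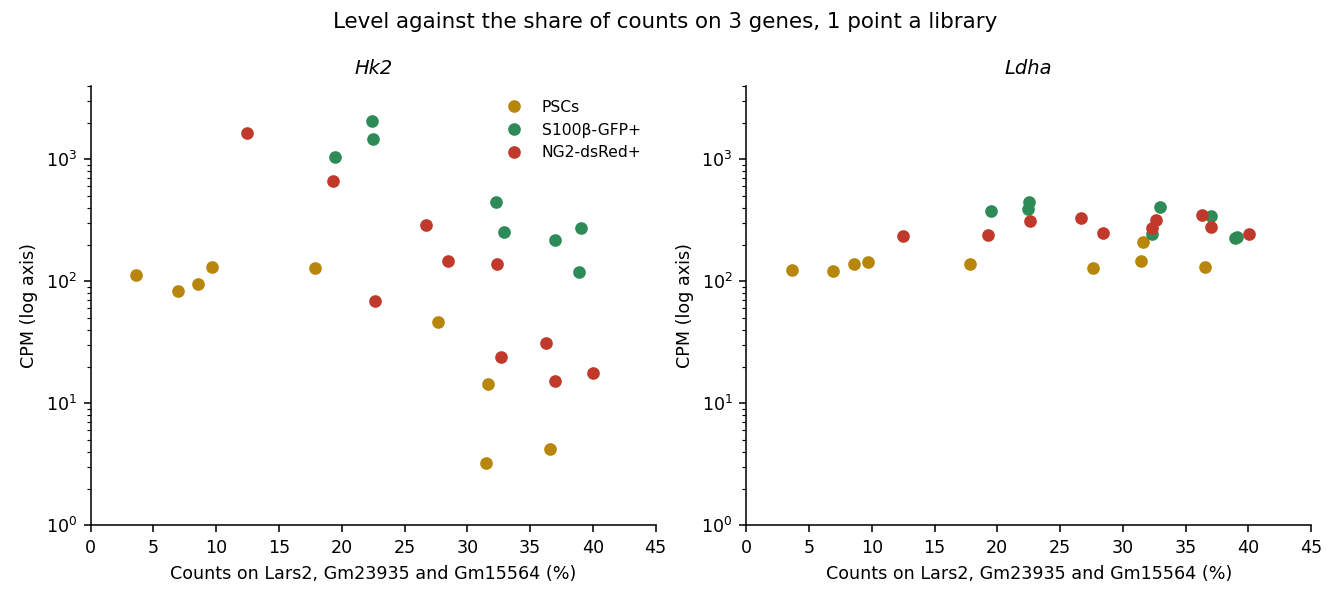
CPM of Hk2 (left) and Ldha (right), on a log axis, against the percentage of a library's counts on Lars2, Gm23935 and Gm15564, with 1 point for each of 27 libraries coloured by cell type. Hk2 falls towards higher shares within each cell type, from 1652 CPM at the lowest share to 17.9 at the highest in NG2-dsRed+ cells, while Ldha stays between 122 and 448 CPM.

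Pfkp encodes the platelet-type phosphofructokinase, the enzyme of the committed step of glycolysis (ENSMUSG00000021196, chr13:6579768-6648777, - strand). PSC libraries held 24.1 to 41.2 CPM with a median of 31.6, NG2-dsRed+ libraries 55.1 to 121.8 with a median of 81.9, and S100β-GFP+ libraries 95.9 to 226 with a median of 151.5. PSC libraries formed a narrow group under all others. Against S100β-GFP+ cells the log2 fold change was -2.25 ± 0.17 (SE; edgeR adjusted p = 6.83e-12), a 4.76-fold lower level, and -1.37 ± 0.16 against NG2-dsRed+ cells (edgeR adjusted p = 4.22e-08). S100β-GFP+ cells exceeded NG2-dsRed+ cells by 0.88 ± 0.16 (edgeR adjusted p = 6.87e-05). The other phosphofructokinase genes are given beside it. Pfkl, of the liver type, was lower in PSCs against both, at 15.5 ± 8.64 CPM (SD, n = 9) beside 25.8 ± 6.10 (n = 8) in S100β-GFP+ and 42.6 ± 11.1 (n = 10) in NG2-dsRed+ cells. Pfkm, of the muscle type, exceeded its S100β-GFP+ level in PSCs (log2 fold change 1.03 ± 0.31, edgeR adjusted p = 0.00649) and did not pass against NG2-dsRed+ cells (0.17 ± 0.28, edgeR adjusted p = 0.666). PSC library 18 held 76.2 CPM of Pfkm, beside 14.7 to 34.1 in the other PSC libraries. That library also had the most muscle fibre marker RNA of the PSC libraries, and the part of this in its Pfkm level was not tested. Per kilobase of exonic sequence, Pfkm was the most abundant of these genes in PSCs, with 9.04 CPM per kb beside 2.38 for Pfkp and 2.32 for Pfkl, whereas in S100β-GFP+ cells Pfkp led with 11.3 beside 4.42 for Pfkm. These lengths count the exonic bases of all annotated transcripts of a gene, 13401 for Pfkp and 3340 for Pfkm, so such levels are approximate. In plain CPM, Pfkp averaged 31.9 and Pfkm 30.2 in PSCs, so the lead of Pfkm there rests on the lengths used.

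Aldoc encodes the brain-type aldolase, known from astrocytes and Purkinje cells (ENSMUSG00000017390, chr11:78322968-78327781, + strand). It was a low-level gene here. PSC libraries ran from 1.04 CPM (library 34) to 22.8 CPM (library 18) with a median of 4.81, S100β-GFP+ libraries from 0.473 to 6.97 with a median of 2.88, and 6 of 10 NG2-dsRed+ libraries held no count, the highest being at 0.508 CPM. All PSC libraries were above all NG2-dsRed+ libraries, in which only 11 counts were found in total. Aldoc passed the filter on low counts in the fit of all cell types, and failed it when PSCs and NG2-dsRed+ cells alone were fitted. The log2 fold change against NG2-dsRed+ cells was 5.25 ± 0.68 (SE; edgeR adjusted p = 2.30e-07) in PSCs and 4.24 ± 0.68 (edgeR adjusted p = 1.18e-05) in S100β-GFP+ cells. PSCs and S100β-GFP+ cells overlapped and the difference of 1.01 ± 0.56 did not pass (edgeR adjusted p = 0.141), and was 0.56 without PSC library 18 and 0.52 without S100β-GFP+ libraries 14, 17 and 22. Aldoa, the aldolase of muscle and most tissues, was far more abundant in every cell type, with 89.0 CPM per kb beside 2.09 for Aldoc in PSCs. PSCs held less of it than S100β-GFP+ cells (log2 fold change -0.45 ± 0.15, edgeR adjusted p = 0.0138) and than NG2-dsRed+ cells (-0.82 ± 0.14, edgeR adjusted p = 2.15e-05).

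Pkm encodes the pyruvate kinase of most tissues, which makes pyruvate in the last step of glycolysis (ENSMUSG00000032294, chr9:59656368-59679375, + strand). PSC libraries held 113 to 179 CPM with a median of 123, S100β-GFP+ libraries 165 to 372 with a median of 285, and NG2-dsRed+ libraries 144 to 220.3 with a median of 205. PSCs were the lowest group, with 8 of 9 libraries below all S100β-GFP+ and 7 of 9 below all NG2-dsRed+ libraries. In PSCs the log2 fold change was -1.01 ± 0.16 (SE; edgeR adjusted p = 5.61e-06) against S100β-GFP+ cells and -0.58 ± 0.15 (edgeR adjusted p = 0.00237) against NG2-dsRed+ cells. S100β-GFP+ cells exceeded NG2-dsRed+ cells by 0.42 ± 0.16 (edgeR adjusted p = 0.0347), a difference that did not pass without S100β-GFP+ library 1 (0.41, 0.0603), 3 (0.34, 0.104), 27 (0.40, 0.0647) or 33 (0.35, 0.0949), and that was 0.67 (edgeR adjusted p = 0.000192) without libraries 14, 17 and 22. The 2 splice forms of Pkm are not separated by counts per gene.

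The lactate dehydrogenase subunits moved in opposite directions. Ldha (ENSMUSG00000063229, chr7:46841475-46855627, + strand) lay lower in all PSC libraries than in any of the rest, and Ldhb (ENSMUSG00000030246, chr6:142490249-142507957, - strand) lay higher. The 250 bases before a RefSeq start of each gene (build GRCm38.p6, printed 5′ to 3′ on the gene's strand) are shown because these genes moved apart, beside those of Slc16a1, the only other of the 10 with the same full motif. Capitals mark ACGTG on either strand, which is a form of the core recognised by hypoxia-inducible factors and overlaps the E-box CACGTG. Other forms of that core were not searched, so a window without capitals may still hold them. The windows are chr7:46845554-46845803 for Ldha, chr6:142507958-142508207 for Ldhb and chr3:104638414-104638663 for Slc16a1. The windows of Ldhb and Slc16a1 lie outside the spans of these genes, and the Ldha window lies within the longer gene span given above. Overlap of the windows with annotated exons was not tested.
Ldha: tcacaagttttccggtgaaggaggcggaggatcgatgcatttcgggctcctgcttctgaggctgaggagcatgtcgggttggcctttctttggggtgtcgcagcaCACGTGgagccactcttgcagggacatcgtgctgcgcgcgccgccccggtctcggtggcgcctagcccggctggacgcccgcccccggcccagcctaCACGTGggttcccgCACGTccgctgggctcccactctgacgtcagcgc
Ldhb: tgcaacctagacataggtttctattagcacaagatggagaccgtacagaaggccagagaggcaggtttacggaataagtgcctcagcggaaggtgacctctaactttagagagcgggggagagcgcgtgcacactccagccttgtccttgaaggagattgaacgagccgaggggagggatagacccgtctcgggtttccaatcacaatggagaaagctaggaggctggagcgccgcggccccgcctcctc
Slc16a1: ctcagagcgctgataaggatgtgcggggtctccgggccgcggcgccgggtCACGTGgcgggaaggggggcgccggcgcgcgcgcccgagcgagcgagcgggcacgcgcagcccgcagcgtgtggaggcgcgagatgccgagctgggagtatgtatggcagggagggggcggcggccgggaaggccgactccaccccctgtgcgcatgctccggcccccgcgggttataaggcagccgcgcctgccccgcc
RefSeq gives Ldha a second start, whose window (chr7:46846832-46847081) is not printed and holds no match. The Ldha window shown holds 5 matches to ACGTG on either strand, of which the 2 copies of CACGTG count on both strands. The Ldhb window holds none. Of the 10 genes, 6 have a match in at least 1 of their RefSeq windows (Slc2a1, Hk2, Pkm, Ldha, Slc16a1 and Slc16a3), compared with 18.5% of 27025 genes, and 2 have CACGTG (Ldha and Slc16a1), compared with 6.86%. These matches are letters in a window only. The data hold no measurement of binding.

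Ldha ran from 122 to 211 CPM in PSC libraries with a median of 138, from 229 to 448 in S100β-GFP+ libraries with a median of 362, and from 235 to 349.8 in NG2-dsRed+ libraries with a median of 275. The highest PSC library was library 31, still under the lowest of the others. The log2 fold change in PSCs was -1.23 ± 0.15 (SE) against S100β-GFP+ cells (edgeR adjusted p = 1.07e-07) and -0.99 ± 0.15 against NG2-dsRed+ cells (edgeR adjusted p = 2.35e-06). S100β-GFP+ and NG2-dsRed+ cells did not differ by the test (0.24 ± 0.15, edgeR adjusted p = 0.233). Without S100β-GFP+ libraries 14, 17 and 22 that difference was 0.46 and passed (edgeR adjusted p = 0.0129).

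Ldhb ran from 92.8 to 417 CPM in PSC libraries with a median of 119.5, from 8.54 to 42.6 in S100β-GFP+ libraries with a median of 23.7, and from 25.1 to 79.4 in NG2-dsRed+ libraries with a median of 38.3. All 9 PSC libraries exceeded all others, and library 18 stood above the remaining PSC libraries, of which the highest held 139 CPM. Library 18 also had the most muscle fibre marker RNA of the PSC libraries, 1400.1 CPM beside 143 to 698, and the part of this in its Ldhb level was not tested. PSCs had a log2 fold change of 2.60 ± 0.32 (SE) against S100β-GFP+ cells (edgeR adjusted p = 7.62e-08), a 6.07-fold higher level, and 1.71 ± 0.28 against NG2-dsRed+ cells (edgeR adjusted p = 1.26e-05), a 3.28-fold higher level. Without library 18 these were 2.28 (edgeR adjusted p = 1.08e-08) and 1.42 (edgeR adjusted p = 6.11e-06). S100β-GFP+ cells held less Ldhb than NG2-dsRed+ cells (-0.89 ± 0.30, edgeR adjusted p = 0.0212), which did not pass without S100β-GFP+ libraries 14, 17 and 22 (-0.80, edgeR adjusted p = 0.0752). Per kilobase, Ldhb was at 94.3 CPM per kb and Ldha at 43.2 in PSCs. These values were 15.5 and 101 in S100β-GFP+ cells and 28.8 and 85.6 in NG2-dsRed+ cells. In plain CPM, Ldhb averaged 148 ± 102 and Ldha 143 ± 27.0 in PSCs (SD, n = 9). Ldha counts exceeded Ldhb counts in 7 of 9 PSC libraries. The higher Ldhb per kilobase in PSCs thus rests on the exonic lengths used, 1570 bases for Ldhb and 3310 for Ldha.

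Since a ratio of counts within a library does not depend on how libraries are scaled, the balance of the subunits was also compared as log2((Ldha count + 0.5)/(Ldhb count + 0.5)). It averaged 0.10 ± 0.74 (SD, n = 9) in PSCs, 2.71 ± 0.55 (n = 10) in NG2-dsRed+ cells and 3.87 ± 0.86 (n = 8) in S100β-GFP+ cells. PSC libraries ran from -1.69 to 0.98, below the lowest S100β-GFP+ value of 3.04 and the lowest NG2-dsRed+ value of 1.65. PSCs differed from S100β-GFP+ cells by -3.77 (two-sided exact permutation test, p = 8.23e-05, adjusted over 9 ratio tests 0.000185) and from NG2-dsRed+ cells by -2.61 (exact p = 2.17e-05, adjusted 9.74e-05). The 2 other cell types differed by 1.16 (exact p = 0.000731, adjusted 0.00132). The p-values of both comparisons of PSCs are the smallest these permutations can give. Without PSC library 18 the differences of PSCs were -3.55 and -2.39.

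**Figure D3:**
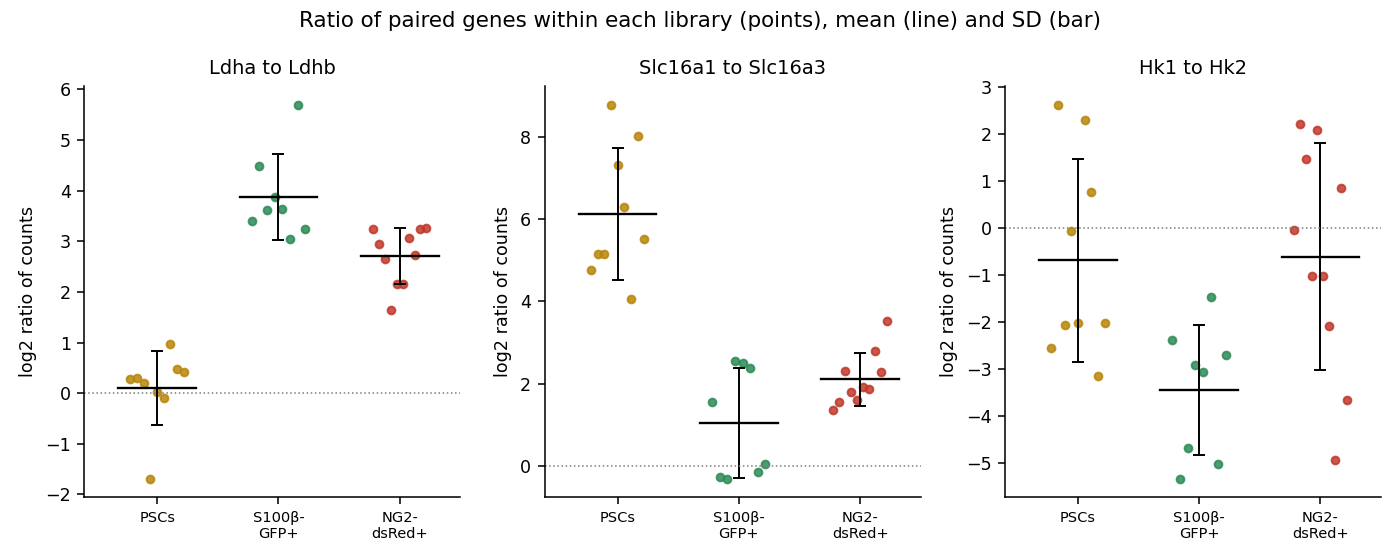
Log2 ratio of counts of paired genes within each library, for Ldha to Ldhb, Slc16a1 to Slc16a3 and Hk1 to Hk2. Points are libraries, the line is the mean and the bar 1 SD (n = 9, 8 and 10 from left to right). The Ldha to Ldhb ratio averages 0.10 in PSCs and 3.87 and 2.71 in the other cell types, and the Hk1 to Hk2 ratio spreads over more than 4 log2 units in PSCs and NG2-dsRed+ cells.

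Slc16a3 encodes MCT4, known from cells that export lactate (ENSMUSG00000025161, chr11:120948480-120960868, + strand). PSC libraries held 0.130 to 3.29 CPM with a median of 0.939 and 96 counts in all, NG2-dsRed+ libraries 3.23 to 9.22 CPM with a median of 6.75, and S100β-GFP+ libraries 9.70 to 52.4 CPM with a median of 31.8. The log2 fold change in PSCs was -4.61 ± 0.46 (SE) against S100β-GFP+ cells (edgeR adjusted p = 1.61e-09), a 24.4-fold lower level, and -2.36 ± 0.43 against NG2-dsRed+ cells (edgeR adjusted p = 3.98e-05). S100β-GFP+ cells exceeded NG2-dsRed+ cells by 2.25 ± 0.40 (edgeR adjusted p = 4.24e-05). Within the S100β-GFP+ cells, libraries 14, 17 and 22 held 9.70 to 11.6 CPM of Slc16a3 and 400.2 to 882 CPM of summed macrophage and leukocyte markers, and the other 5 held 26.4 to 52.4 CPM and 1796 to 4382 CPM. Without these 3 libraries the log2 fold change in PSCs was -5.02.

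**Figure D4:**
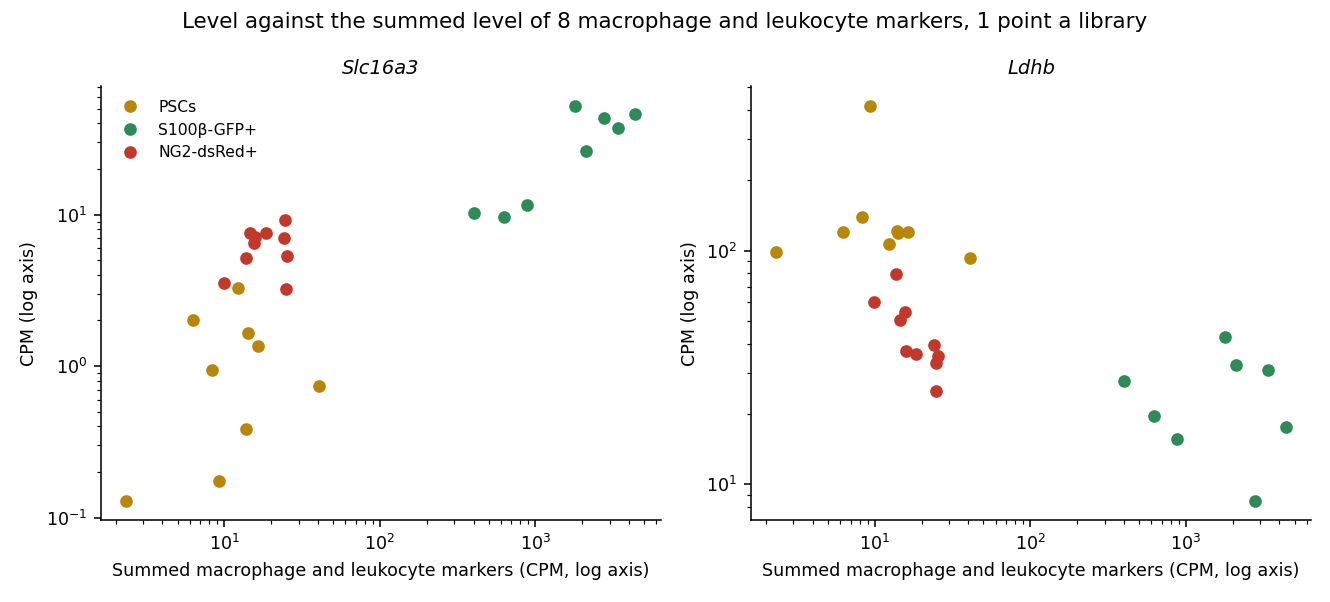
CPM of Slc16a3 (left) and Ldhb (right) against the summed CPM of 8 macrophage and leukocyte markers, both on log axes, with 1 point for each of 27 libraries coloured by cell type. S100β-GFP+ libraries lie at 400.2 CPM of markers or more, and PSC and NG2-dsRed+ libraries at 40.7 or less. PSC libraries hold 92.8 CPM of Ldhb or more and NG2-dsRed+ libraries 79.4 or less.

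Slc16a1 encodes MCT1, which carries lactate in either direction and is known from oligodendrocytes and Schwann cells (ENSMUSG00000032902, chr3:104638668-104658462, + strand). PSC libraries held 36.0 to 115 CPM with a median of 55.5, S100β-GFP+ libraries 30.0 to 77.6 with a median of 53.6, and NG2-dsRed+ libraries 13.6 to 38.0 with a median of 24.7. PSCs and S100β-GFP+ cells overlapped and did not differ by the test (log2 fold change 0.29 ± 0.23 SE, edgeR adjusted p = 0.313, and 0.45 with adjusted p = 0.185 without S100β-GFP+ libraries 14, 17 and 22). Both exceeded NG2-dsRed+ cells, PSCs by 1.23 ± 0.22 (edgeR adjusted p = 3.49e-05) and S100β-GFP+ cells by 0.94 ± 0.23 (edgeR adjusted p = 0.00154). Of the PSC libraries, 8 of 9 lay above all NG2-dsRed+ libraries. The highest PSC value was that of library 18. Without it the log2 fold change in PSCs was 0.18 against S100β-GFP+ cells (edgeR adjusted p = 0.507). Against NG2-dsRed+ cells it was then 1.15 (edgeR adjusted p = 3.83e-05).

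The log2 ratio of Slc16a1 to Slc16a3 counts averaged 6.11 ± 1.60 (SD, n = 9) in PSCs, 2.10 ± 0.65 (n = 10) in NG2-dsRed+ cells and 1.04 ± 1.33 (n = 8) in S100β-GFP+ cells. The lowest PSC value, 4.05, was above the highest of the others, 3.52. PSCs exceeded S100β-GFP+ cells by 5.08 (two-sided exact permutation test, p = 8.23e-05, adjusted over 9 ratio tests 0.000185) and NG2-dsRed+ cells by 4.01 (exact p = 2.17e-05, adjusted 9.74e-05), again the smallest p-values possible. S100β-GFP+ and NG2-dsRed+ cells differed by -1.06 (exact p = 0.0414, adjusted 0.0466), which did not pass without S100β-GFP+ library 3, 11, 27 or 33 or without NG2-dsRed+ library 9, 13, 21, 26, 28, 30 or 35 (-1.10 to -0.87, adjusted exact p = 0.0522 to 0.1004). Without S100β-GFP+ libraries 14, 17 and 22 together it was -1.93 (adjusted exact p = 0.001998). The ratio of Hk1 to Hk2 was 2.77 higher in PSCs than the S100β-GFP+ mean (exact p = 0.00724, adjusted 0.0109) and 2.84 lower in S100β-GFP+ than in NG2-dsRed+ cells (exact p = 0.0109, adjusted 0.0140). PSCs and NG2-dsRed+ cells, at -0.68 ± 2.16 and -0.61 ± 2.42, did not differ by the test (-0.07, exact p = 0.947).

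Bsg encodes basigin, the chaperone of MCT1 and MCT4, and averaged 382 ± 135 CPM (SD, n = 9) in PSCs, 389 ± 69.8 (n = 10) in NG2-dsRed+ cells and 239 ± 45.7 (n = 8) in S100β-GFP+ cells. PSCs exceeded S100β-GFP+ cells (log2 fold change 0.68 ± 0.17 SE, edgeR adjusted p = 0.00198) and did not pass against NG2-dsRed+ cells (-0.03, edgeR adjusted p = 0.908). Emb encodes embigin, a related chaperone, and averaged 1.64 ± 0.83 CPM in PSCs beside 4.56 ± 1.76 in NG2-dsRed+ cells and 90.9 ± 44.3 in S100β-GFP+ cells. It was lower in PSCs, with log2 fold changes against S100β-GFP+ and NG2-dsRed+ cells of -5.79 ± 0.39 (edgeR adjusted p = 6.91e-13) and -1.48 ± 0.35 (edgeR adjusted p = 0.000935), with all PSC libraries below all S100β-GFP+ libraries. Emb shares 13.9% of its 50-base stretches with 2 other genes, Gm17509 on the opposite strand and Rnf7, so its counts are less certain. Of the 5 genes tested on the list of other carriers and chaperones, 2 were higher and 2 lower in PSCs relative to S100β-GFP+ cells, and 1 was higher and 1 lower than in NG2-dsRed+ cells. Slc16a7, which encodes MCT2, was lower than in S100β-GFP+ cells (3.19 ± 2.87 beside 8.92 ± 5.86 CPM), and Mpc2, a subunit of the mitochondrial pyruvate carrier, was higher than in NG2-dsRed+ cells (67.9 ± 18.3 beside 47.6 ± 9.65 CPM).

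The lists of related genes below are to be read beside the shares of all genes that passed, 47.0% for S100β-GFP+ cells as the reference and 44.0% for NG2-dsRed+ cells. The other enzymes of glycolysis were lower in PSCs or did not pass the test, with 1 exception. Against S100β-GFP+ cells, 9 of the 14 tested were lower in PSCs and 1 was higher (Pfkm), the median log2 fold change being -0.82, and 6 were lower and none higher than in NG2-dsRed+ cells, with a median of -0.89. The genes that moved most against S100β-GFP+ cells were Hk3, a further hexokinase, with 4 counts in all 9 PSC libraries together and 10.3 ± 5.57 CPM in S100β-GFP+ cells, and the enolase Eno1 (65.9 ± 33.4 CPM in PSCs, 230.2 ± 99.5 in S100β-GFP+ and 142 ± 35.8 in NG2-dsRed+ cells). Against NG2-dsRed+ cells they were Pfkl and Gapdh, the dehydrogenase of the middle of the pathway (9.00 ± 4.05 CPM in PSCs beside 21.7 ± 4.55). The level of Gapdh is uncertain, since 24.7% of its 50-base stretches occur in 115 other annotated genes, mostly pseudogenes, on which 17173 counts were placed beside 3167 on Gapdh itself. Among the 5 regulators of phosphofructokinase, PSCs had less of 2 than S100β-GFP+ cells (Pfkfb3 and Pfkfb4) and less of 1 than NG2-dsRed+ cells (Pfkfb3), with none higher. Pfkfb3, which makes the sugar bisphosphate that activates phosphofructokinase, averaged 14.1 ± 12.3 CPM in PSCs, 59.3 ± 25.5 in S100β-GFP+ and 79.9 ± 32.2 in NG2-dsRed+ cells.

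**Figure D5:**
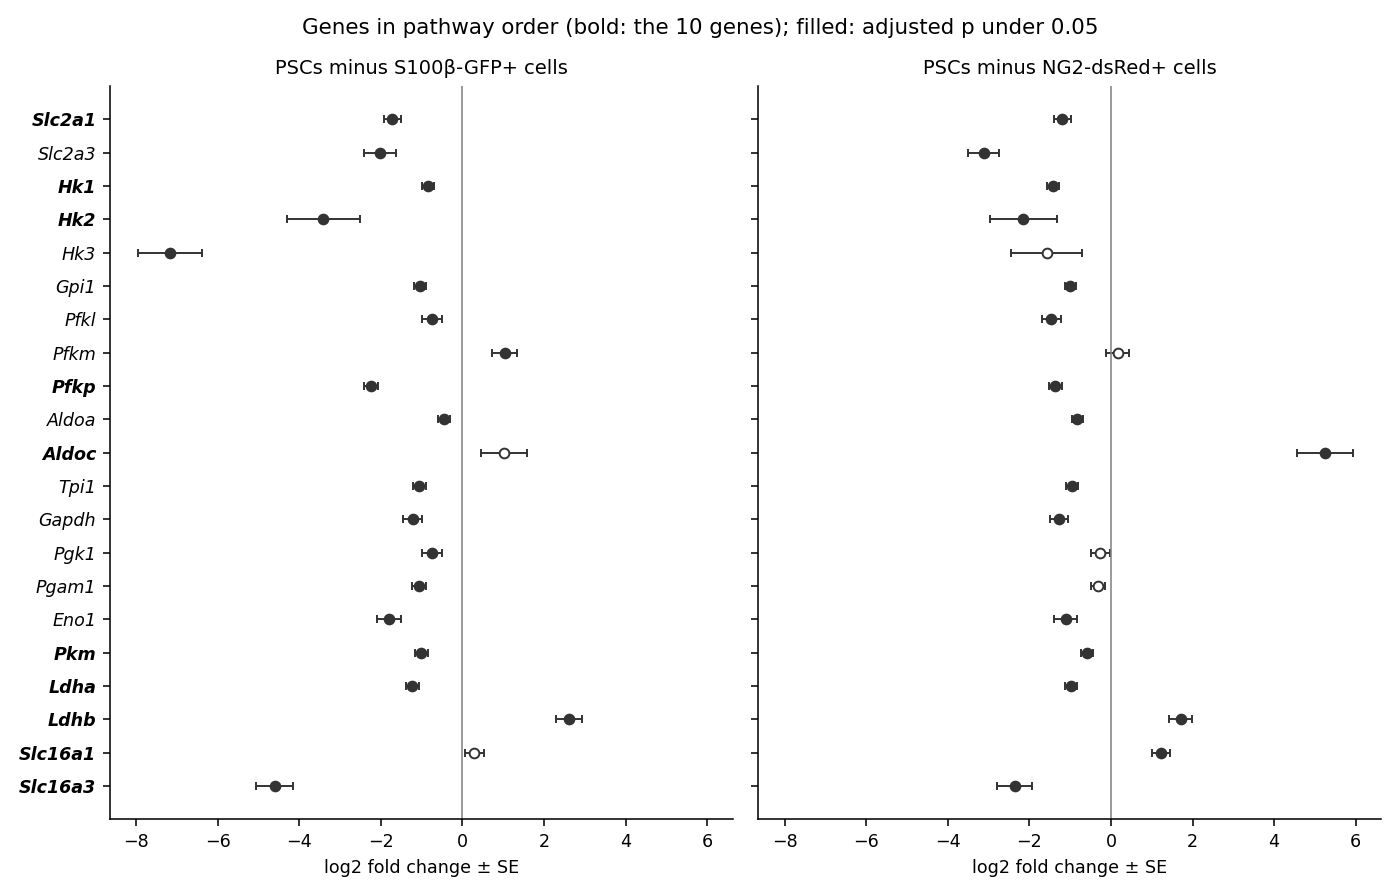
Log2 fold change of PSCs against S100β-GFP+ cells (left) and NG2-dsRed+ cells (right) with its SE, for 21 genes from glucose uptake at the top to lactate transport at the bottom. Bold names are the 10 genes, filled points have an edgeR adjusted p under 0.05, and the other genes were chosen after their values were seen to fill each step. Most points lie left of 0, and Ldhb lies to the right at 2.60 and 1.71. Not plotted are Adpgk (0.28 and 0.48), Pgam2 (0.73 and 0.19) and Eno3 (0.62 and 0.27), right of 0. Eno2 (-0.89 and -0.98), left of 0, is not plotted either, and none of these passed the test. Of the other glucose transporters only Slc2a3 is shown, and the rest moved in both directions.

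Among 8 other glucose transporters, 2 were lower and 1 higher in PSCs in each comparison. Slc2a6 averaged 0.149 ± 0.180 CPM in PSCs, with 12 counts over 9 libraries, and 27.5 ± 22.1 in S100β-GFP+ cells. Slc2a3, which encodes the high-affinity transporter GLUT3, averaged 1.67 ± 1.53 CPM in PSCs, 6.62 ± 1.82 in S100β-GFP+ and 14.3 ± 2.98 in NG2-dsRed+ cells, and Slc2a4, the insulin-responsive transporter GLUT4, averaged 2.70 ± 1.23 in PSCs beside 29.1 ± 12.3 in NG2-dsRed+ cells. Of 16 genes of glycogen metabolism, 7 were lower and 1 higher than in S100β-GFP+ cells, and 6 lower and 3 higher than in NG2-dsRed+ cells. They included Pygl, a glycogen phosphorylase (3.92 ± 2.10 CPM in PSCs beside 33.9 ± 12.1 in S100β-GFP+ cells), and Ppp1r3c and Ppp1r3d, which tie a phosphatase to glycogen (1.14 ± 0.65 and 1.85 ± 1.33 CPM in PSCs beside 15.3 ± 3.33 and 19.6 ± 5.25 in NG2-dsRed+ cells). Of 7 genes of the pentose phosphate pathway, 3 were lower and 1 higher than in S100β-GFP+ cells, and 1 was higher than in NG2-dsRed+ cells. G6pdx, its entry enzyme, averaged 9.00 ± 3.93 CPM in PSCs and 50.9 ± 20.2 in S100β-GFP+ cells, Pgd, the next dehydrogenase, 29.0 ± 4.79 and 74.2 ± 22.3, and the epimerase Rpe 23.7 ± 7.97 in PSCs beside 13.8 ± 4.58 in NG2-dsRed+ cells.

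Genes of pyruvate oxidation moved in both directions. Of 12 genes of pyruvate dehydrogenase, its kinases and phosphatases and pyruvate carboxylase, 3 were higher and 2 lower in PSCs relative to S100β-GFP+ cells, and 2 higher and 2 lower than in NG2-dsRed+ cells, with median log2 fold changes of 0.18 and 0.07. Pdhx, a structural component of the complex, was higher than in S100β-GFP+ cells (20.9 ± 7.88 beside 10.5 ± 1.93 CPM) and the kinase Pdk3 lower (11.7 ± 2.72 beside 19.4 ± 10.7 CPM). The kinase Pdk4 was higher than in NG2-dsRed+ cells (17.0 ± 13.7 beside 9.20 ± 1.57 CPM) and the phosphatase Pdp2 lower (9.84 ± 3.09 beside 18.6 ± 5.88 CPM). Of 16 genes of the tricarboxylic acid cycle, 3 were lower and none higher against S100β-GFP+ cells (median -0.02), and 7 lower and none higher than in NG2-dsRed+ cells, with a median of -0.36. They included Sdhd, a subunit of succinate dehydrogenase (-0.75 ± 0.20 SE), and Suclg2, of succinyl-CoA ligase (-0.61 ± 0.23), against S100β-GFP+ cells, and Suclg2 (-1.01 ± 0.22) and Idh3a, of isocitrate dehydrogenase (-0.57 ± 0.17), against NG2-dsRed+ cells. Of 9 genes of the shuttles that bring cytosolic NADH electrons to mitochondria, 2 were higher and 3 lower than in S100β-GFP+ cells, and 3 higher and 3 lower than in NG2-dsRed+ cells. Lower were the transaminase Got1 and the carrier Slc25a13 against S100β-GFP+ cells (-2.15 ± 0.28 and -1.80 ± 0.45) and the carrier Slc25a12 against NG2-dsRed+ cells (-1.02 ± 0.15), and higher was the dehydrogenase Gpd1 against NG2-dsRed+ cells (1.02 ± 0.40). Whether these lists differ from each other was not tested.

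The hypoxia response drives many glycolytic genes in other settings, so its genes were counted too. Of 16, 6 were lower and 1 higher in PSCs relative to S100β-GFP+ cells, and 7 lower and 1 higher than in NG2-dsRed+ cells, with medians of -0.55 and -0.68. Counting both directions together, the number called was thus close to the share over all genes. Against S100β-GFP+ cells this also held for glycogen metabolism and pyruvate dehydrogenase. Most of the hypoxia genes called were lower, as were most of the glycogen genes called. Of all genes, 24.1% were lower and 22.9% higher against S100β-GFP+ cells, and 23.1% and 20.9% against NG2-dsRed+ cells. Whether the lists lean more than all genes was not tested. Vegfa and Adm, which encode secreted factors, averaged 7.12 ± 3.85 and 6.27 ± 2.66 CPM in PSCs beside 73.0 ± 14.9 and 55.4 ± 20.8 in S100β-GFP+ cells. Epas1, the gene of a hypoxia-inducible factor that endothelium uses heavily, averaged 88.0 ± 30.0 CPM in PSCs beside 1049.5 ± 225 in NG2-dsRed+ cells, and Ddit4 19.4 ± 11.4 and 94.2 ± 35.9. Beside these values, the summed endothelial markers were 183 to 706 CPM in PSC libraries and 1523 to 3571 CPM in NG2-dsRed+ libraries. The summed pericyte and smooth muscle markers were 798 to 1522 CPM and 7333 to 15923 CPM in the same order. Which cells held the RNA of Epas1 and Ddit4 was not tested. All 6 cell cycle markers were higher in PSCs than in NG2-dsRed+ cells, and 5 of them were higher in S100β-GFP+ than in NG2-dsRed+ cells. Between PSCs and S100β-GFP+ cells, 1 was higher in PSCs and 5 did not pass.

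Across the 27 libraries, which share the 3 cell types and their depth, several of the 10 genes ran together, and these correlations are descriptions. Slc16a3 was most like Pfkp (Pearson r of log2 CPM 0.96, and 0.74 after the mean of each cell type was taken out), then Srgn and Lcp1. Pfkp was most like Srgn, Zyx and Skap2 (r = 0.98 for Srgn) and Srgn, known from blood cells, ran from 145 to 677 CPM in S100β-GFP+ libraries and from 8.17 to 40.3 in PSC libraries. Ldha was most like Eps8, Arhgdib and Srgn (0.95 for Eps8), Slc2a1 like Elf4, Vsir and Rap1b (0.94 for Elf4), Hk1 like Ifitm2, Adap2 and Cbfa2t3 (0.93 for Ifitm2) and Pkm like Capzb, Eno1 and Pitpna (0.95 for Capzb). Ldhb was most like Serpine2, Mmp17 and Mvb12b (0.93 for Serpine2), Slc16a1 like Thbs2, Reck and Prdx6 (0.86 for Thbs2) and Aldoc like B4galt6, Tmed10 and St3gal5 (0.93 for B4galt6). Hk2 stood apart, being most like the metallothionein gene Mt2 (0.95, and 0.92 with cell type means taken out), Cpxm1 and Ap2a2. Ldha and Ldhb had r = -0.78 over all libraries and -0.12 with the cell type means taken out.

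Some counts could include reads of near-identical copies or of overlapping genes. Of the 50-base stretches of its transcripts, Pkm shares 24.9% with other annotated genes, Ldhb 21.0% with the pseudogene Gm5514, Ldha 7.80% with pseudogenes and Pfkp 5.10% with Pitrm1 on the opposite strand. Slc2a1 and Hk1 share under 2% and Hk2, Aldoc, Slc16a1 and Slc16a3 none. The genes that share sequence with Ldhb and Ldha held 253 and 467 counts in all, beside 14896 and 46699 on Ldhb and Ldha. Those that share with Pkm, among them Gm49759, which overlaps it on the same strand, held 2246 beside 36460 on Pkm. Pitrm1, whose exons overlap those of Pfkp, held 4104 beside 15621 on Pfkp.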

How the data were processed

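RNA of sorted cells was amplified with SMART-Seq v4 and sequenced. After trimming (ea-utils, Btrim) and alignment to GRCm38 with HISAT2, per the submitters' processing notes and methods, the authors deposited raw HTSeq counts per gene. The sources used here give no tool versions, annotation release or strand setting. Of the 36 labelled libraries, 27 have a column and the rest were not analysed here. Gene names and spans came from GENCODE M21, which held 52489 identifiers (99.72%), and promoter sequences from RefSeq (GRCm38.p6).

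Counts were filtered with filterByExpr (minimum count 10), scaled by TMM and fitted for 3 cell types with edgeR 4.0.16's quasi-likelihood test, with Benjamini-Hochberg adjustment over 15330 genes and a threshold of 0.05 (R 4.3.3, common BCV 0.462). Log2 ratios of counts (pseudocount 0.5) were compared by two-sided exact permutation tests, adjusted over 9 tests (SciPy 1.17.1). The code was tested on simulated data. Alternatives used DESeq2 1.42.0 and limma 3.58.1. Figures used matplotlib 3.10.9. No 2 columns were identical. The members and lists were chosen with earlier results of these data known, and the slope with the share of 3 genes was added after the data were seen. Besides the 10 genes, the text names set isoform partners and chaperones, up to 2 genes with the largest change past the threshold per list and comparison against PSCs, and the 3 genes most correlated with each of the 10. Libraries held 5221655 to 9592875 counts, and p-values cover the spread between libraries, each from 1 mouse per the methods.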

Additional observations from a re-analysis of the deposited data

Results flagged for a closer look

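In 3 of the 39 sets of values tested, where chance alone would flag about 1 in 20, a single PSC library stood apart from the other 8. Ldha was highest in library 31, at 7.72 log2 CPM, with the next at 7.21. Ldhb was highest in library 18, at 8.70 log2 CPM, with the next at 7.12, and the log2 ratio of Ldha to Ldhb was lowest in the same library, at -1.69, with the next at -0.09. Library 31 held 4441 CPM of summed chondrocyte and tenocyte markers, beside 2.01 to 45.5 in the other PSC libraries, and library 18 held the most muscle fibre marker RNA. Their part in these values was not tested. Ldhb stayed past the threshold without library 18 and Ldha without library 31, in both comparisons of PSCs.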

How the results depend on the processing

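Of 30 differences of the 10 genes, 25 passed the threshold. Direction and side of the threshold were kept in 214 of 228 other alternatives and in 523 of 540 fits without 1 library. Without a filter on low counts, 16556 genes passed between PSCs and S100β-GFP+ cells (3907 higher, 12649 lower, median -0.97, with 23.6% of calls higher beside 48.78% with the filter) and 10586 between S100β-GFP+ and NG2-dsRed+ cells (8194 higher, 2392 lower, median 0.78, 77.4% beside 54.34%). With a pseudocount of 5, the Slc16a1 to Slc16a3 ratio differed between S100β-GFP+ and NG2-dsRed+ cells by -0.97 (adjusted exact permutation p = 0.0565). The Pkm difference between these cell types did not pass without a filter (0.39, edgeR adjusted p = 0.0974) or with a mean count of 5 (0.40, 0.0512), and that of Hk2 passed with limma-voom (2.89, adjusted p = 0.00432). The causes were not tested. Aldoc failed the filter against NG2-dsRed+ cells when only 2 cell types were fitted.

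Leaving out each library gave -1.28 to -0.87 for that transporter ratio (-1.93 without S100β-GFP+ libraries 14, 17 and 22 together) and -0.55 to 0.24 for the Hk1 to Hk2 ratio between PSCs and NG2-dsRed+ cells, which changed sign without PSC library 4, 12, 20, 34 or 36 or NG2-dsRed+ library 7, 9, 15 or 30 (0.16, 0.10, 0.10, 0.24, 0.10, 0.24, 0.16, 0.23 and 0.09) and passed no test. Of the 10 genes, 8 passed between PSCs and S100β-GFP+ cells, 9 to 10 between PSCs and NG2-dsRed+ cells, and 6 to 9 between S100β-GFP+ and NG2-dsRed+ cells. No paired analysis was possible because no label ties a library to a mouse and the groups share no library number. Mice may still be shared between groups. Low counts limit Slc16a3 in PSCs and Aldoc in NG2-dsRed+ cells.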
